A study of Mus musculus with 6 samples.

Results

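The receptors through which peritoneal macrophages (PMs) bind IgG were measured as mRNA in diseased-BWF1 mice and control mice. The set holds the Fc gamma receptor genes Fcgr1, Fcgr2b, Fcgr3 and Fcgr4, the signalling chain gene Fcer1g and the neonatal receptor gene Fcgrt. These 6 genes were taken by name, with no measured value in the rule, from the 32879 genes to which the deposited counts could be assigned. All 6 passed the low-count filter that left 10505 genes for testing. RNA-seq was done on sorted CD11b+ F4/80+ PMs, with 1 library for each animal. Control mice (n = 3) were females of the non-lupus-susceptible cross of NZW and BALB/c, aged 33, 33 and 30 weeks. The 3 diseased-BWF1 mice were females of the cross of NZB and NZW, aged 31, 31 and 34 weeks, with antibodies to double-stranded DNA and severe proteinuria. Both crosses have an NZW parent. The other parent was NZB in one group and BALB/c in the other, so strain and disease cannot be told apart in any comparison.

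Cells that ingest immune complexes read IgG through a balance of receptors. Fcgr1, Fcgr3 and Fcgr4 are activating: they pair with the Fcer1g chain, whose tyrosine-based activation motif is phosphorylated by Src-family kinases and then recruits Syk. Fcgr2b is the inhibitory receptor of the family, and its own cytoplasmic tyrosine-based motif recruits the phosphatase SHIP1 when it is engaged together with an activating receptor. Fcgrt encodes FcRn, which pairs with beta-2 microglobulin and returns ingested IgG to the cell surface instead of letting it be degraded.

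The inhibitory receptor was the member that differed. Fcgr2b was 4.73-fold lower in diseased-BWF1 mice, while the activating receptor genes, the chain and FcRn did not pass the test. Of the 6 members, 1 was called lower and 0 higher, where a call needs an adjusted p under 0.05 in edgeR's quasi-likelihood test and a fold change of at least 1.5. Over all genes tested, 0.819% were called lower and 0.4% higher. At an unadjusted p under 0.05 in edgeR Fcgr2b was again the single member to pass, as did 1385 of the 10505 genes tested. DESeq2 also called Fcgr2b and none of the other members. In a bulk sample, fewer cells of a type and less RNA per cell cannot be told apart.

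The coding sequences that separate the opposed arms of this family are short. The sequences below were read from the GENCODE transcripts of the mouse build GRCm38 and are written 5′ to 3′ on the minus strand of chromosome 1. The first lies in the last exon of Fcgr2b at chr1:170961059-170961100, with the 18 bases that encode the inhibitory motif (codons 270 to 275 of 293) in capitals. The second is the activation motif of Fcer1g at chr1:171229889-171230072, codons 65 to 79 of 86, with an intron within it in the genome. Its capitals mark the 24 bases that encode the paired tyrosine modules.
Fcgr2b inhibitory motif: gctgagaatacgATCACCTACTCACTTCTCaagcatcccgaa
Fcer1g activation motif: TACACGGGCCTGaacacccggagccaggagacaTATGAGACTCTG
In translations of the members' transcripts the activation pattern was found once, in Fcer1g, and in none of the other 5 members. The shorter inhibitory pattern matched in 5 of the 6 members, so its letters alone do not single out Fcgr2b.

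Fcgr2b lies on chromosome 1 at chr1:170960558-170976071. Its normalized counts (counts divided by each library's DESeq2 size factor) were 1917, 1738 and 2545 in control mice 1 to 3. In diseased-BWF1 mice 1 to 3 they were 270.2, 525 and 523. Every diseased-BWF1 mouse was thus below every control mouse, and the lowest control value was more than 3 times the highest diseased value. The means were 2067 ± 424 and 439 ± 147 (SD, n = 3 mice each). The edgeR log2 fold change was -2.24 (SE 0.29, 95% interval -2.93 to -1.56), with an adjusted p of 0.0217, and the fold change had an interval of 2.95 to 7.60. Fcgr2b ranked 44th of all genes by p. An exact two-sided permutation test gave p = 0.1, the smallest that 3 mice against 3 allow.

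The size of the Fcgr2b difference moved little and its call was often lost. In fits that each lacked 1 mouse, the estimate lay between -2.39 and -1.99 and the edgeR adjusted p between 0.0443 and 0.0753, so the call was kept in 1 of 6 such fits, the one without diseased-BWF1 replicate 1. It was kept in 8 of 9 other alternatives and was lost with curated mRNA records alone (adjusted p = 0.065), where the log2 fold change was again -2.24.

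**Figure D1:**
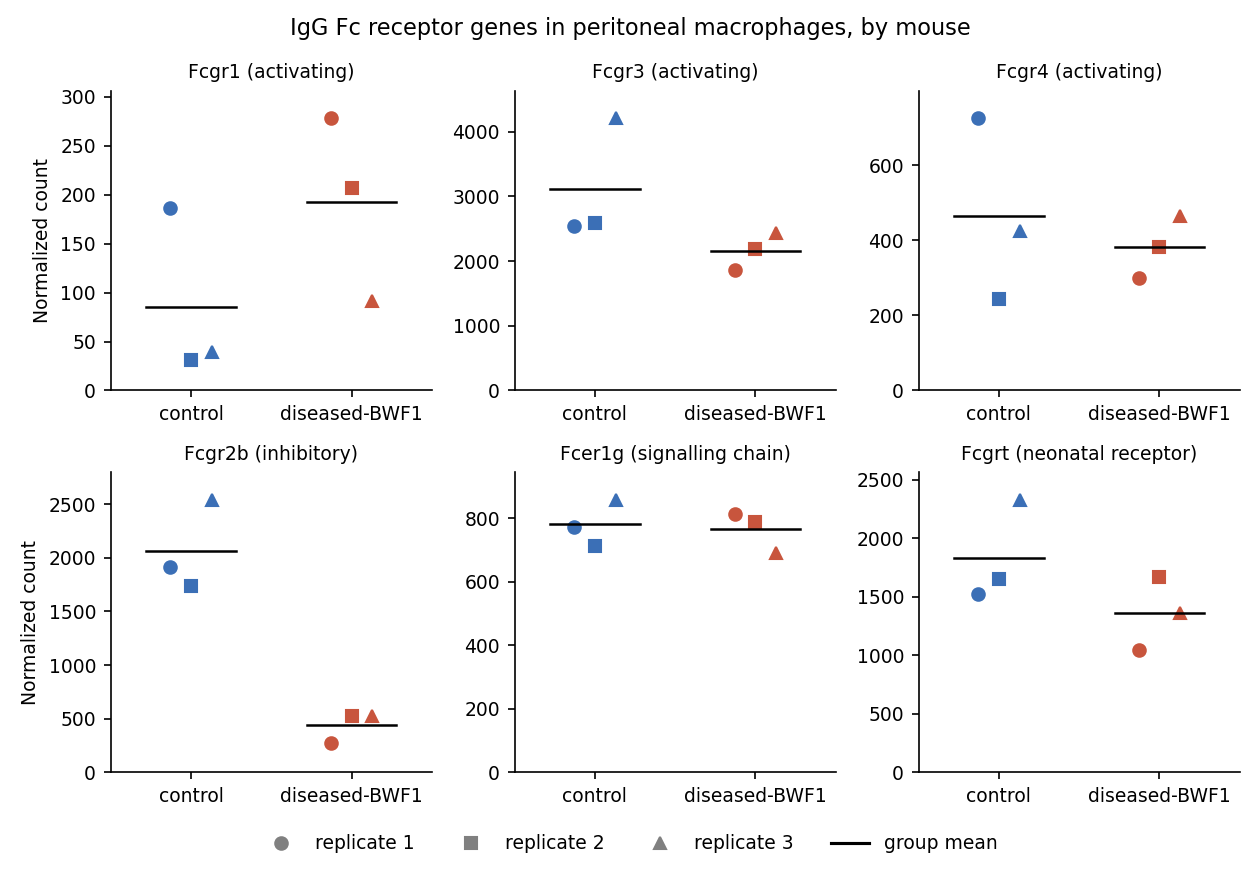
Normalized count (y axis, linear from 0, own scale per panel) of the 6 genes in the 3 control mice (blue) and the 3 diseased-BWF1 mice (red), 1 point per mouse with the group mean as a line. Fcgr2b lies between 1738 and 2545 in control mice and between 270.2 and 525 in diseased-BWF1 mice, and Fcer1g overlaps throughout.

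Counts were deposited per transcript record, and Fcgr2b has 2 of them. They differ by an in-frame coding exon of 141 bases, exon 6 of the longer form at chr1:170963325-170963465, and by 1941 noncoding bases that only the longer record holds. The exon is shown because it separates the form known from B cells (FcγRIIB1), which carries it in the cytoplasmic tail, from the form known from macrophages (FcγRIIB2), which lacks it.
Fcgr2b exon 6 of the longer form: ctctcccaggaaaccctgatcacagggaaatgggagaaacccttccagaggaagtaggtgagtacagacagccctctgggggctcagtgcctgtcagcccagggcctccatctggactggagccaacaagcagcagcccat
The record without the exon held most of the gene's counts in every mouse. Its normalized counts were 1692, 1613 and 2281 in control mice and 250.3, 449 and 498 in diseased-BWF1 mice. The record with the exon had 224, 126 and 264 in control mice and 19.9, 76.2 and 25.2 in diseased-BWF1 mice. Neither record overlapped between groups. The longer record made up 11.7%, 7.23% and 10.4% of the gene's counts in control mice and 7.37%, 14.5% and 4.82% in diseased-BWF1 mice, and these shares overlapped. Tested as records, the log2 fold changes were -2.23 (edgeR adjusted p = 0.151) for the shorter form and -2.34 (adjusted p = 0.413) for the longer. Among 20332 records tested, 0.0% were called lower and 0.0639% higher, while 1280 records had an unadjusted p under 0.05 in edgeR, the one tool run on records. How reads common to both forms were divided between them is not given in the sources used here, so the record counts are estimates.

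Fcgr3 encodes FcγRIII, the activating receptor closest in sequence to Fcgr2b, and lies at chr1:171051169-171065915. Its normalized counts were 2541, 2584 and 4215 in control mice and 1856, 2179 and 2427 in diseased-BWF1 mice. The groups did not overlap, though the gap between them was small beside the spread among control mice. edgeR put the log2 fold change at -0.54 (SE 0.23, 95% interval -1.09 to 0.0077), which did not pass the test (adjusted p = 0.386), and was -0.25 without control replicate 3, the highest library. Of the 6 members, 2 had every diseased-BWF1 mouse below every control mouse, Fcgr2b and Fcgr3, against 11.1% of all genes tested. No member had every diseased-BWF1 mouse above every control mouse, a pattern that 9.81% of all genes showed.

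Because Fcgr2b and Fcgr3 are near copies in their extracellular part, reads from one could have been counted for the other. Their coding sequences were 80.6% identical over 794 aligned bases, against 60.2% to 62.6% for the other pairs among the Fc gamma receptor genes. The longest stretch they share exactly is 129 bases of coding sequence across exons 3 and 4 of both transcripts, at chr1:170966674-170968081 in Fcgr2b and chr1:171054167-171057792 in Fcgr3, introns included.
Shared by Fcgr2b and Fcgr3: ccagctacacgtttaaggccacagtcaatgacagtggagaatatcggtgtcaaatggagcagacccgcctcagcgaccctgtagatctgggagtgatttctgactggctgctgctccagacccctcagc
Windows of 75 bases common to both genes made up 5.42% of the windows of Fcgr3. Of the windows of Fcgr2b, 2.70% (156 of 5768) occurred in another gene, Fcgr3 and others outside this family. Both shares are over all GENCODE transcripts of the gene. Between the shorter Fcgr2b record and the curated Fcgr3 record alone, common windows made up 6.77% of the former and 7.38% of the latter. None of the windows of Fcgr1, Fcgr4, Fcer1g or Fcgrt occurred in another gene. The sum of Fcgr2b and Fcgr3, which does not depend on how reads common to both were divided, was 4458, 4322 and 6761 normalized counts in control mice and 2126, 2705 and 2950 in diseased-BWF1 mice. The sum did not overlap between groups either. Both genes were lower in mean, by 1627 normalized counts for Fcgr2b and 959 for Fcgr3.

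Fcgr4, at chr1:171018926-171029761, encodes FcγRIV, an activating receptor of macrophages and neutrophils for IgG2a and IgG2b. Its normalized counts were 726, 244 and 424 in control mice and 299, 381 and 465 in diseased-BWF1 mice. The diseased-BWF1 values lay inside the control range. The estimated log2 fold change was -0.30 (SE 0.37, 95% interval -1.16 to 0.57, edgeR adjusted p = 0.785), and it turned to 0.17 without control replicate 1, which had the highest count of all 6 mice.

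Fcgr1, at chr3:96282909-96293969, encodes FcγRI, the high-affinity receptor that binds monomeric IgG2a. It was the least abundant member and the most variable, with normalized counts of 186, 30.9 and 38.9 in control mice and 279, 207 and 91.7 in diseased-BWF1 mice. Control replicate 1 again stood above the other control mice and lay between the values of diseased-BWF1 replicates 2 and 3. Its estimated log2 fold change was 1.14 (SE 0.70, 95% interval -0.49 to 2.77) and did not pass the test (edgeR adjusted p = 0.542). Without control replicate 1 it was 2.45, with an adjusted p of 0.138, and over all the fits with a mouse left out it lay between 0.75 and 2.45. The interval covers both no difference and a difference larger than that of Fcgr2b, so at this number of mice the direction of Fcgr1 was not resolved.

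Fcer1g, at chr1:171229572-171234349, encodes the common gamma chain that the activating receptors need for surface expression and signalling. Its normalized counts were 772, 713 and 858 in control mice and 814, 788 and 690.2 in diseased-BWF1 mice. It was the steadiest member, with coefficients of variation of 9.36% among control mice and 8.56% among diseased-BWF1 mice. The estimate was a log2 fold change of -0.039 (SE 0.14, 95% interval -0.36 to 0.28, edgeR adjusted p = 0.934). That interval leaves out a change as large as that of Fcgr2b in either direction. The sign was positive, at 0.040 and 0.031, without control replicate 3 or diseased-BWF1 replicate 3.

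Fcgrt, at chr7:45092993-45103822, is the member that recycles IgG and does not take part in activating or inhibitory signalling. Its normalized counts were 1521, 1651 and 2329 in control mice and 1039.9, 1669 and 1363 in diseased-BWF1 mice, and diseased-BWF1 replicate 2 lay among the control mice. This amounted to a log2 fold change of -0.44 (SE 0.23, 95% interval -0.99 to 0.11, edgeR adjusted p = 0.482). B2m, the beta-2 microglobulin partner of FcRn, had a log2 fold change of -0.35 (adjusted p = 0.557) and normalized counts between 4557 and 9074 over the 6 mice.

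**Figure D2:**
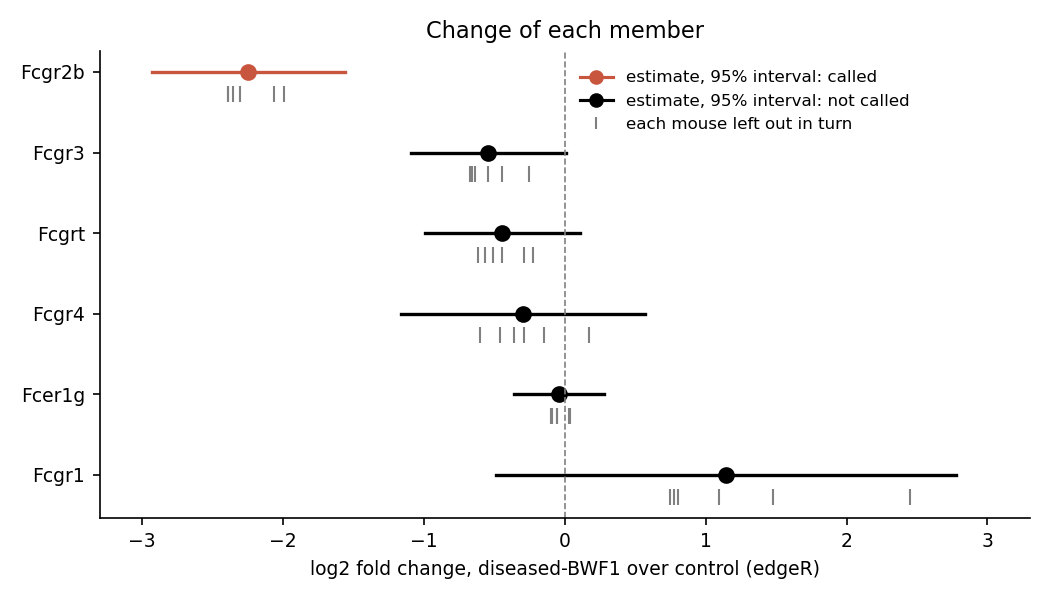
Log2 fold change of each member, diseased-BWF1 over control (x axis), with its 95% interval from edgeR, and the estimates with each mouse left out in turn as grey ticks. The interval of Fcgr2b, -2.93 to -1.56, lies apart from 0, those of the other 5 members include 0, and the tick at 2.45 for Fcgr1 is the fit without control replicate 1.

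Levels of different genes were compared as normalized counts per kb of transcript. In control mice the order of the means was Fcgr3 at 2312, Fcgr2b at 1331, Fcer1g at 1159, Fcgrt at 1036, Fcgr4 at 370.0 and Fcgr1 at 33.0 per kb. The ranges of Fcgr2b and Fcer1g overlapped, as did those of Fcer1g and Fcgrt, whereas the other neighbours in this order did not. In diseased-BWF1 mice the order was Fcgr3 at 1597, Fcer1g at 1134, Fcgrt at 767, Fcgr4 at 304, Fcgr2b at 284 and Fcgr1 at 74.4 per kb. Only the ranges of Fcgr4 and Fcgr2b overlapped among these neighbours. Fcgr2b thus moved from rank 2 to rank 5, and the other members kept their order among themselves.

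The make-up of the Fc gamma receptor transcripts within each mouse followed from these levels. Per kb, Fcgr2b was 32.5%, 34.9% and 32.0% of the summed level of Fcgr1, Fcgr2b, Fcgr3 and Fcgr4 in control mice, and 9.30%, 14.1% and 13.6% in diseased-BWF1 mice. The share of Fcgr3 was 50.2% to 61.2% in control mice and 69.3% to 72.5% in diseased-BWF1 mice. The shares of the other activating genes overlapped. Fcgr4 took 15.4%, 5.96% and 6.60% in control mice and 12.5%, 13.1% and 14.5% in diseased-BWF1 mice. Fcgr1 took 1.91%, 0.366% and 0.293% in control mice and 5.67%, 3.45% and 1.39% in diseased-BWF1 mice. The summed normalized count of these receptor genes, without regard to length, was 5730.3 ± 1349.8 in control mice against 3168 ± 416 in diseased-BWF1 mice (SD, n = 3 each). Both the Fcgr2b share and the summed count were lower in every diseased-BWF1 mouse than in every control mouse.

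**Figure D3:**
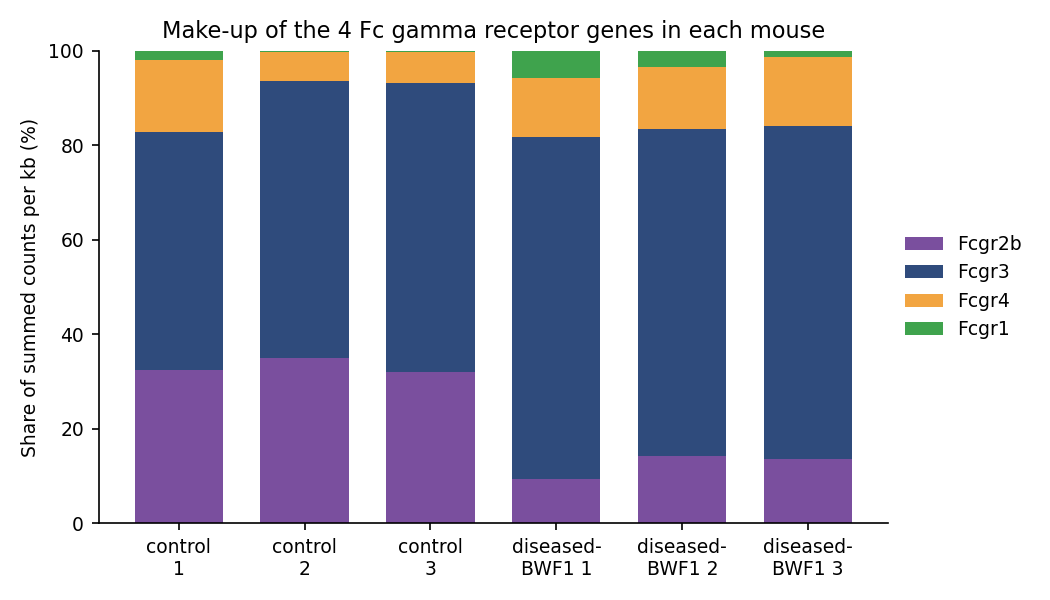
Share of the summed counts per kb (y axis, percent) taken by Fcgr2b, Fcgr3, Fcgr4 and Fcgr1 in each of the 6 mice (x axis), as stacked bars. Fcgr2b takes 32.0% to 34.9% in control mice and 9.30% to 14.1% in diseased-BWF1 mice.

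The ratio of activating to inhibitory receptor was taken from the counts within each mouse, so that library size cancels. The ratio of Fcgr3 to Fcgr2b was 1.33, 1.49 and 1.66 in control mice and 6.87, 4.15 and 4.64 in diseased-BWF1 mice, a 3.44-fold difference of geometric means. The ratio of Fcgr4 to Fcgr2b was 0.379, 0.140 and 0.167 in control mice and 1.11, 0.725 and 0.888 in diseased-BWF1 mice, a 4.32-fold difference. Fcgr4 had fewer counts than Fcgr2b in every control mouse and more in diseased-BWF1 replicate 1. The ratio of Fcgr1 to Fcgr2b was 0.0972, 0.0178 and 0.0153 in control mice and 1.03, 0.395 and 0.175 in diseased-BWF1 mice, a 13.9-fold difference with the widest spread. The Fcer1g chain gave ratios of 0.403, 0.410 and 0.337 in control mice and 3.01, 1.5 and 1.32 in diseased-BWF1 mice, 4.75-fold apart.

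For the summed activating receptors (Fcgr1, Fcgr3 and Fcgr4) the ratio to Fcgr2b was 1.80, 1.64 and 1.84 in control mice and 9.01, 5.27 and 5.71 in diseased-BWF1 mice. The control mice were close to each other, and the geometric means differed 3.68-fold, or 3.57-fold with counts per kb. The Fcgrt ratio, which sets no activating receptor against Fcgr2b, differed as much, at 3.59-fold. None of these ratios overlapped between groups, and each of the 5 single ratios gave p = 0.1, also after Benjamini-Hochberg adjustment over the 5, in an exact two-sided permutation test, the smallest possible. The same held for 95.0% of the other 10504 genes tested, whose ratio to Fcgr2b was also higher in every diseased-BWF1 mouse than in every control mouse, with a median log2 difference of 2.29. The log2 difference was 1.78 for Fcgr3, 2.11 for Fcgr4, 2.25 for Fcer1g and 3.80 for Fcgr1. For Fcgr3, Fcgr4, Fcer1g and the summed receptors (1.88) the higher ratio thus follows arithmetically from the lower Fcgr2b count. These differences are at or below that of a typical gene. The Fcgr1 ratio differed by more than the median, and the log2 fold change of Fcgr1 itself, 1.14, did not pass the test (edgeR adjusted p = 0.542).

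**Figure D4:**
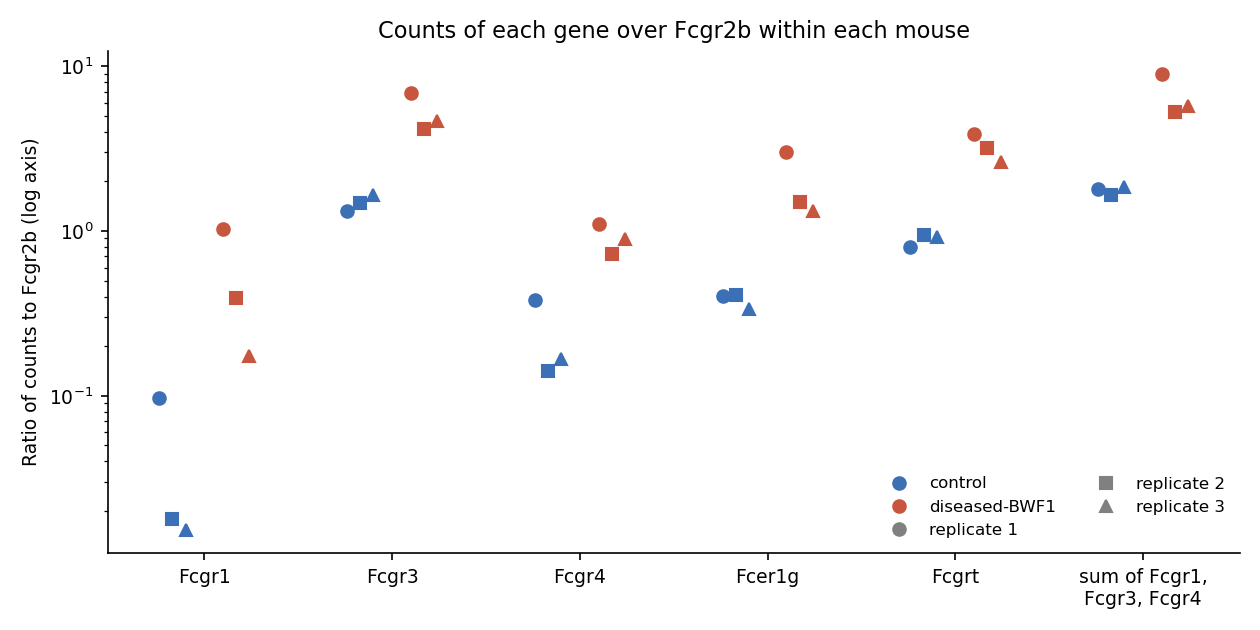
Ratio of the counts of each gene, and of the summed activating receptors, to those of Fcgr2b (y axis, log scale) in control mice (blue) and diseased-BWF1 mice (red), with the replicate given by the symbol. No gene overlaps between groups, and the summed ratio is 1.64 to 1.84 in control mice and 5.27 to 9.01 in diseased-BWF1 mice.

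Genes that act with or after the receptors were then examined. Over 6 lists with 71 genes in all, 56 genes were tested and 0 were called in either direction by edgeR. Over all genes tested edgeR called 0.819% lower and 0.4% higher, so 0 of 56 is near that share. An unadjusted edgeR p under 0.05 was found for 4 of the 56, beside 1385 of all 10505 genes tested. DESeq2 called 1 of the 56, Wipf1, beside 133 genes called higher and 239 lower over all genes. Of the 17 genes of proximal activating signalling, 8 had a log2 fold change below 0 and 9 above, with a median of 0.15 beside 0.0053 over all genes tested. Lyn, a Src-family kinase that phosphorylates these motifs, had 1260 ± 109 normalized counts in control mice against 1415 ± 115 in diseased-BWF1 mice (log2 fold change 0.16, edgeR adjusted p = 0.671). Syk, which docks on the phosphorylated chain and is named here after its values were seen, had a log2 fold change of 0.15 (adjusted p = 0.684).

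The 10 genes listed as inhibitory signalling had a median log2 fold change of 0.10. Inpp5d, which encodes SHIP1, had normalized counts of 685, 737 and 1004 in control mice and 710.0, 699.7 and 939 in diseased-BWF1 mice (log2 fold change -0.055, edgeR adjusted p = 0.936). The counts of the phosphatase that Fcgr2b recruits thus overlapped between groups. Inppl1, the related phosphatase SHIP2, was listed at 0 in control replicate 3 and had between 213 and 305 normalized counts in the other 5 mice (log2 fold change 0.79, adjusted p = 0.774). The 24 genes of the phagocytic cup and its actin, of which 23 were tested, had a median of -0.029. Rac1 and Rac2, GTPases that drive the closing of the cup, had log2 fold changes of -0.14 and 0.058 (edgeR adjusted p = 0.704 and 0.876). Wipf1, which encodes a partner of the actin regulator WASP, came nearest to a call, with 552, 570 and 477 normalized counts in control mice and 865, 760 and 899 in diseased-BWF1 mice. The log2 value of 0.65 (SE 0.13) had an edgeR adjusted p of 0.0751, and the gene is named after its values were seen.

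Other genes listed as immunoglobulin receptors were nearly absent, apart from Trim21. Of 12 such genes 1 was tested, Trim21, an intracellular receptor for antibody, with 76.6 to 91.7 normalized counts and a log2 fold change of -0.089 (edgeR adjusted p = 0.840). Fcer1a and Pigr had no counts in any mouse, and 6 more had at most 3 counts in any mouse. A count of 0 allows up to 0.652 to 0.888 CPM (counts scaled to equal library totals), depending on the library. Among adaptors that resemble Fcer1g, Tyrobp, which carries DAP12, had 2478, 2604 and 3021 normalized counts in control mice and 2314, 2444 and 1920 in diseased-BWF1 mice. The groups did not overlap, and the log2 fold change of -0.29 was not called (edgeR adjusted p = 0.497). Of the lectin receptors that use the Fcer1g chain, Clec4e (Mincle) had a log2 fold change of 0.49 (adjusted p = 0.266) and Clec4n (Dectin-2) one of 0.026 (adjusted p = 0.991).

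The genomic surroundings were examined because Fcgr2b, Fcgr4, Fcgr3 and Fcer1g lie within 1 stretch of chromosome 1, chr1:170960558-171234349, and the rule did not use position. Of 44 other annotated genes in that stretch or within 500 kb of it, 21 were tested, with log2 fold changes between -0.95 and 2.40 and a median of -0.11. None was called lower and 1 was called higher, against 0.819% and 0.4% of all genes tested. The gene called higher was Gm39701, a predicted protein-coding gene at chr1:170945108-170949763, 10.8 kb from Fcgr2b and the tested gene nearest to it. Gm39701 had 14.9, 21.6 and 20.6 normalized counts in control mice and 94.8, 87.3 and 121 in diseased-BWF1 mice. It was low in all control mice and higher in all diseased-BWF1 mice, the opposite of Fcgr2b beside it. The estimated log2 fold change was 2.40 (SE 0.23, 95% interval 1.86 to 2.95, edgeR adjusted p = 0.00791). Unlike Fcgr2b it was called in all 6 fits with a mouse left out, at log2 fold changes of 2.24 to 2.51, and in 8 of 8 other alternatives, curated records alone being left out because it has none. Whether its reads come from a transcript of its own was not tested.

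Sdhc and Tomm40l, which lie between Fcgr3 and Fcer1g, had log2 fold changes of -0.27 (edgeR adjusted p = 0.362) and -0.44 (adjusted p = 0.544). Within 500 kb of Fcgr1, 23 of 56 genes were tested and 0 were called by edgeR, with log2 fold changes from -2.44 to 0.93. Within 500 kb of Fcgrt, 38 of 79 were tested and 0 were called, with values from -1.56 to 0.73. Both counts of 0 are near the shares over all genes tested, 0.819% called lower and 0.4% higher. The tested genes nearest to Fcgr1 on either side were H2ac18 and Txnip, and Rcn3 lay beside Fcgrt.

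**Figure D5:**
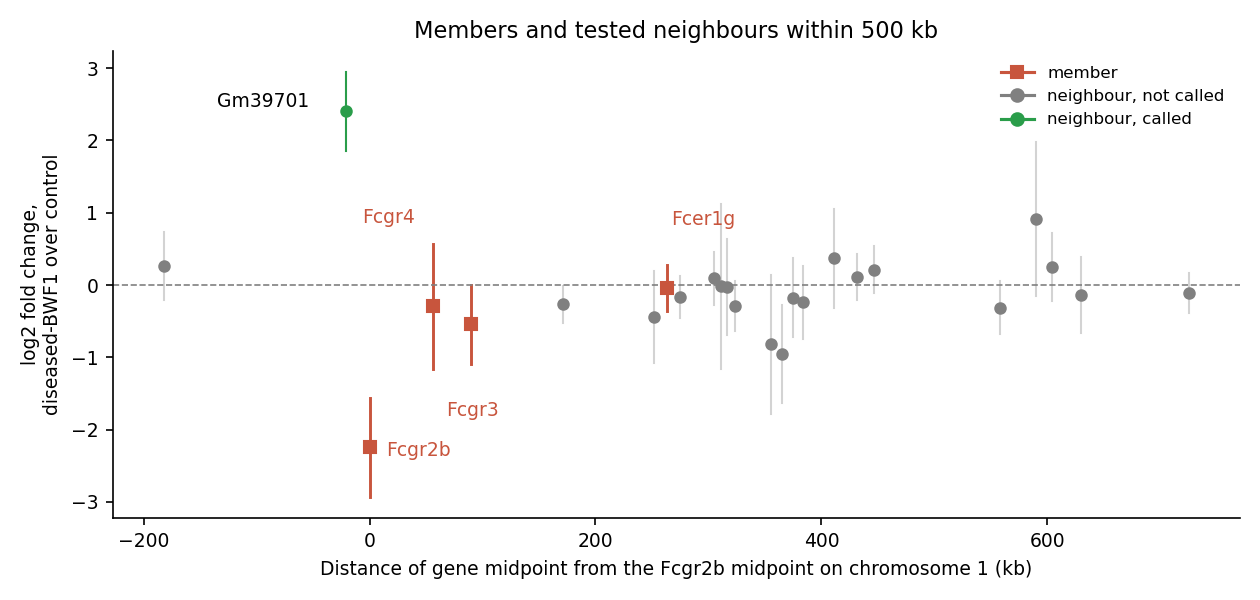
Log2 fold change with its 95% interval (y axis) of the members on chromosome 1 (squares) and of the 21 tested neighbours (circles) against the distance of each gene's midpoint from that of Fcgr2b (x axis, kb). Fcgr2b at -2.24 and Gm39701 at 2.40 stand side by side on opposite sides of 0, and every other point lies between -0.95 and 0.92.

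The genes whose values ran most like each member over the 6 mice were found by Pearson correlation of log2 normalized counts, as a description. All values come from the same 6 libraries, with the group difference among them. Fcgr2b ran closest to Prnp (r = 0.991) and Prdx1 (r = 0.991). Fcgr1 ran closest to 6720489N17Rik (r = 0.988), Xaf1 (r = 0.987) and Spata2l (r = 0.984). For Fcgr3 the closest was Atg4d (r = 0.996), followed by Crybg3 and Cnih1, and for Fcgr4 it was Adam15 (r = 0.993), followed by Terf1 and Zfp455. For Fcer1g it was Il11ra1 (r = 0.989), followed by Bend6 and Nkrf, and for Fcgrt it was AB124611 (r = 0.994), followed by Slc6a16 and Cops2. No other member was among the 3 closest genes of any member.

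Markers of other cells that carry Fc receptors were read beside these results. All 9 macrophage markers were tested, and edgeR and DESeq2 each called 0. Over all genes tested edgeR called 0.819% lower and 0.4% higher, and DESeq2 called 239 genes lower and 133 higher. Icam2 and Timd4, 2 of the 9, had an unadjusted edgeR p under 0.05, beside 1385 of all 10505 genes tested. The summed normalized count of the macrophage markers was 149737 to 194107 in control mice and 123747 to 146698 in diseased-BWF1 mice, without overlap. Lyz2 made up most of these sums, with 96889 to 151745 in control mice and 77188 to 96816 in diseased-BWF1 mice. Of the 9, 4 had every diseased-BWF1 mouse below every control mouse (Adgre1, Lyz2, Icam2 and Timd4), against 11.1% of all genes tested. Log2 fold changes were below 0 for 6 markers and above 0 for 3, Itgam at 0.13, Csf1r at 0.41 and Mertk at 0.44. The 7 B cell markers found summed to 18.5 to 29.0 in control mice and 6.05 to 15.2 in diseased-BWF1 mice. B cells carry Fcgr2b, and this list moved in the same direction. Neutrophil markers, of cells that carry Fcgr3 and Fcgr4, summed to 8.28 to 14.9 in control mice and 11.2 to 18.1 in diseased-BWF1 mice, with Ly6g, Retnlg and Mpo at 0. Mast cell markers summed to at most 3.05 in any mouse, T or NK cell markers to at most 13.3 and eosinophil markers to at most 10.2. Of 6 monocyte markers, 4 were tested and 2 of these were called higher by edgeR, against 0.4% of all genes tested. Among the 2 was Hp (log2 fold change 1.98, edgeR adjusted p = 0.0192), while Ly6c2 had at most 3 counts. The summed monocyte list overlapped, at 2138 to 3854 in control mice and 2595 to 3699.8 in diseased-BWF1 mice. The part of the B cell, macrophage and monocyte lists in the values of Fcgr2b and Fcgr1 was not tested.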

How the data were processed

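Stranded mRNA libraries were sequenced from the PMs of 6 mice, 3 per group, and the authors deposited whole-number counts per RefSeq transcript record, without normalization, for each mouse. The submitters' processing notes name Salmon 0.8.0, DESeq2 and the build GRCm38.p6. How reads that fit several records were assigned is not given in the sources used here. The effect of parental strain alleles on matching to the reference was not tested. Records were matched to a RefSeq gene table of GRCm38.p6 by accession, 45754 with the same version and 40712 with another, and summed per gene, and 20727 records without a gene were left out. Library totals were 3629901 to 5003360, of which 89.1% to 93.0% lay on genes. The floor of 3 counts covers counting error only.

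Groups were compared in R 4.3.3 with edgeR 4.0.16 (filterByExpr, TMM, glmQLFit, glmQLFTest, no covariate), adjusted by Benjamini-Hochberg over 10505 genes. Single values used an exact two-sided permutation test on counts divided by DESeq2 1.42.0 size factors (0.875 to 1.21). Intervals are 95% intervals of the model. Mice are separate animals. The code was tested on simulated data. Alternatives were DESeq2, other size factors, other low-count filters, limma-voom (limma 3.58.1), age as a covariate, a block for the replicate number, curated records alone and each mouse left out. The members and lists were chosen with earlier results of these data known. Genes named are the members, the first 2 tested and every called gene of each pathway list, B2m, Tyrobp, the nearest and called neighbours, the 3 best correlated genes per member, and those said to be named after their values were seen. Some genes that this rule covers are not reported here.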

Additional observations from a re-analysis of the deposited data

How the results depend on the processing

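Over 160 recomputed values, 128 kept their direction and their side of the threshold or moved by less than the spread. All ratios to Fcgr2b were among these with each mouse left out. The 128 also include ratios under the replicate block, which equal the main values by arithmetic and so could not move. Under curated records the Fcgr3 ratio alone changed, from a log2 difference of 1.7805 to 1.77825, because the other genes have curated records alone. The calls over all genes depended most on the processing. The 42 genes called higher became 133 with DESeq2, 89 without the low-count filter, 27 with at least 10 counts in every library, 18 with the replicate block, 9 with curated mRNA records alone and 11 to 22 with a mouse left out. The 86 called lower became 239, 170, 57, 20, 7 and 10 to 29 in the same settings, and 53 with age as a covariate. Fcgr2b had a log2 fold change of -2.24 and an adjusted p above the threshold with curated records alone, and -2.39 to -1.99 with a mouse left out. Fcgr4 reversed to 0.17 without control replicate 1, and Fcer1g to 0.040 and 0.031 without control or diseased-BWF1 replicate 3, and leave-one-out values ran from -0.60 to 0.17 and from -0.097 to 0.040. The cause of these shifts was not tested. Same-numbered mice are different animals, so the number was not taken as a pairing. Their deviations correlated at 0.117, 0.00556 and 0.157, and those of mice with different numbers at -0.144 to 0.0573. The values 0.157 and 0.117 were the highest of all pairs. Whether the number marks anything shared was not tested. With the replicate block Fcgr2b stayed called, at -2.28 (edgeR adjusted p = 0.0467). Only 3 mice per group limit what Fcgr1, at 30 counts in control replicate 2, can show.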
